A study of Mus musculus with 21 samples.

Results

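The chemokines and their receptors were followed in kidney RNA of apolipoprotein E knockout (apoE KO) mice. A gene was taken as a member when its symbol began with Ccl, Cxcl, Cx3cl or Xcl followed by a number, or with Ccr, Cxcr, Cx3cr, Xcr or Ackr followed by a number. Cxcl13, Cxcr5, Ccl19 and Ccr7 were left out by this rule. Of 58 symbols that matched, 51 were linked by their Ensembl ID to the 21657 genes of the count tables, 32 ligands and 19 receptors. The other 7 (Ccl21a, Ccl21b, Ccl21c, Ccl26, Ccl27, Ccl27b and Cxcr1) carried no ID and were not analysed here. All mice were females lacking apoE on the C57BL/6J background, were 4 weeks old at the start, and had their kidneys taken at 18 weeks after 14 weeks of feeding. The Con group (5 mice) had the control diet, the Ade group (6 mice) the adenine diet, which injures the tubules and leads to chronic kidney disease, and the Ade + IMC group (6 mice) adenine together with iodomethylcholine, an inhibitor of the gut bacterial enzyme that makes trimethylamine. Since every mouse lacked apoE, a protein that clears lipoproteins from plasma, the Con group is not a wild-type control. The 4 mice given IMC without adenine were not analysed here, so the effect of IMC on the chemokines of an uninjured kidney cannot be read. Each mouse gave 1 library, and libraries held 5444833 to 11680809 counted reads.

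Chemokines are small secreted proteins that guide leukocytes by binding receptors coupled to G proteins on the cell surface. The CC ligands draw mainly monocytes, macrophages, dendritic cells and T cells. The CXC ligands of Cxcr2 draw neutrophils, and those of Cxcr3 are induced by interferon gamma and draw activated T and natural killer cells. The atypical receptors (Ackr) bind chemokines without signalling through G proteins and mainly remove or store them. In an injured kidney, tubule cells, endothelium and the infiltrating leukocytes themselves can all release these ligands.

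Levels are given as CPM, the reads of a gene scaled to a library of 1000000 reads, with library sizes set by the trimmed mean of M values (TMM), and as CPM per kilobase of annotated exon where genes are compared with each other. Groups were compared over all expressed genes, and a gene was called when its Benjamini-Hochberg adjusted p-value was below 0.1, the threshold the study used. In the Con kidney the constitutive ligands stood highest. Cxcl12, which retains cells bearing Cxcr4, had 33.7 ± 6.82 CPM per kilobase (SD, n = 5), and Cx3cl1, the membrane-bound ligand of Cx3cr1, had 32.2 ± 2.31, a difference smaller than their spread. Cxcl14 followed with 21.02 ± 4.22 CPM per kilobase, Ackr3, a scavenger of Cxcl12, with 18.2 ± 1.71, and Cxcl16, the ligand of Cxcr6, with 14.0 ± 0.888. Cxcl14 and Ackr3 differed by less than the SD of Cxcl14 but by more than that of Ackr3. Cxcl16 was lower than both by more than its SD. In the Ade group the order was another: Cx3cl1 (61.3 ± 3.96 CPM per kilobase, SD, n = 6), Ccl8 (60.2 ± 26.1), Cxcl16 (57.5 ± 10.4) and Cxcl14 (56.6 ± 4.11) stood at the top. Each of the last 3 lay within its spread of its neighbour in this order, whereas Cx3cl1 was above Cxcl14 by slightly more than either SD. Ccl6 came next with 36.7 ± 8.20 CPM per kilobase, and Cxcl12 with 25.3 ± 10.8. In the Ade + IMC group the top 5 were Ccl8 (60.9 ± 50.7 CPM per kilobase, SD, n = 6), Cx3cl1 (58.7 ± 5.40), Cxcl16 (46.3 ± 5.39), Cxcl14 (45.5 ± 5.05) and Cxcl12 (39.6 ± 10.6). Ccl8 and Cx3cl1 lay within their spread of each other there, as did Cxcl16 and Cxcl14. Cxcl12 was lower than Cxcl16 and Cxcl14 by less than its own SD but by more than theirs.

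**Figure D1:**
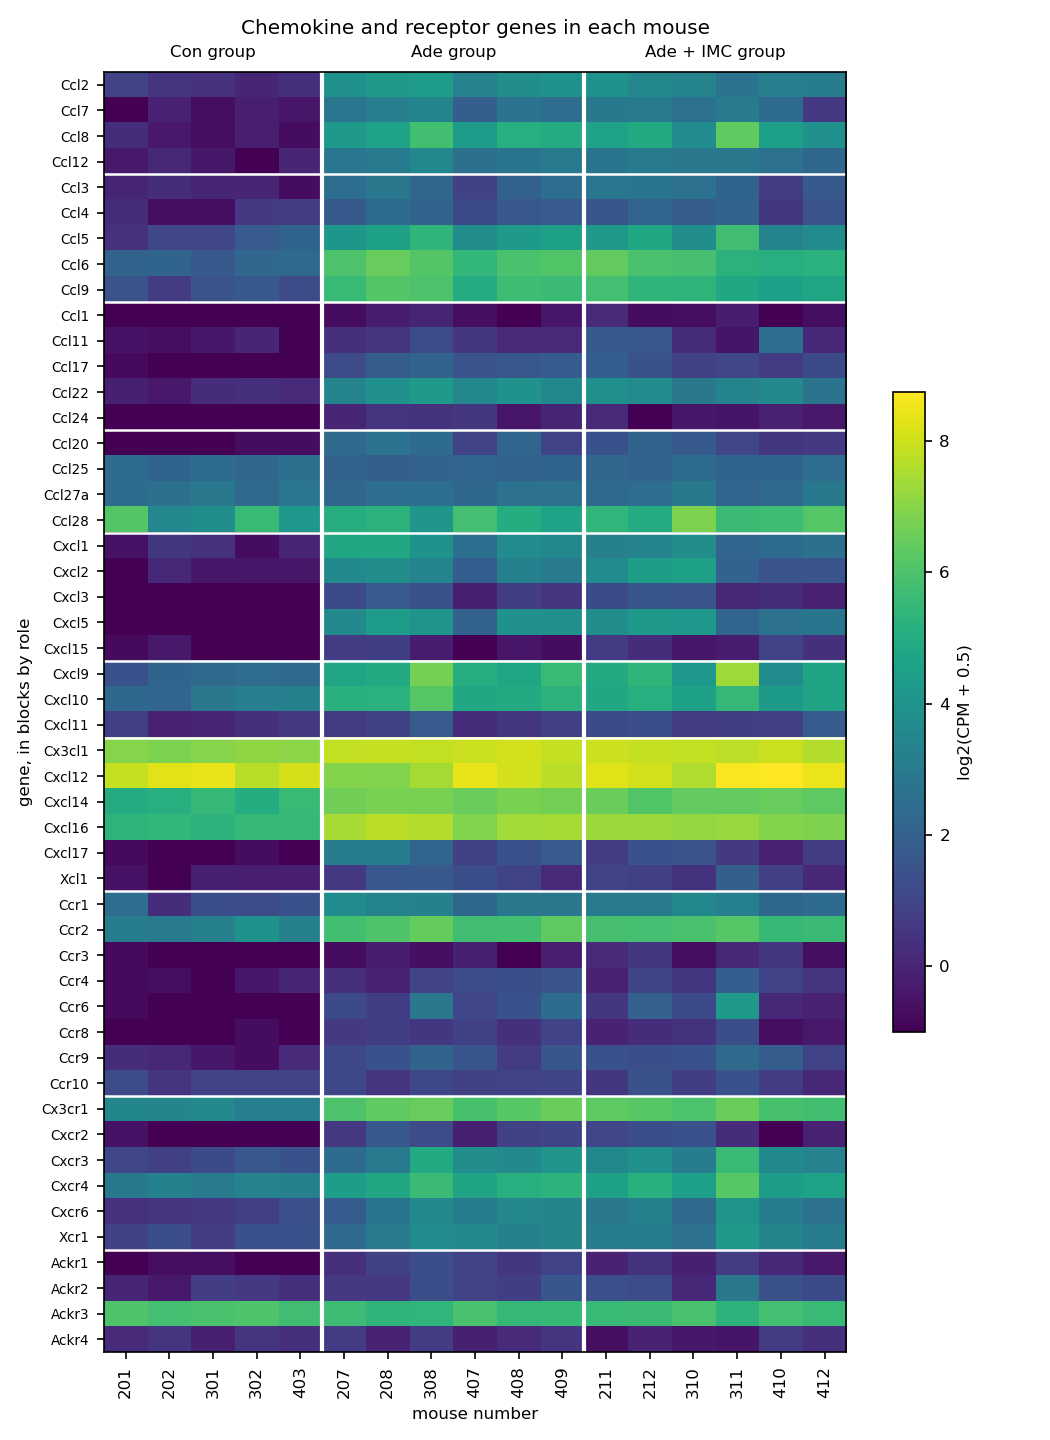
Colour gives log2(CPM + 0.5) of 50 genes (rows, in blocks by role) in the 17 mice (columns, by group). The Cxcl12, Cx3cl1, Ackr3 and Cxcl16 rows are bright in every Con mouse, and Cxcl5, Cxcl3, Ccl24 and Ccl1 had 0 reads in all 5 Con mice.

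The adenine diet was set against the control diet to see which of these genes it moved. By edgeR's quasi-likelihood test, 31 of the 37 members with enough reads were higher in the Ade group than in the Con group, while higher calls made up 35.1% of the 14612 genes tested. The members called lower were 2, Ackr3 and Ccl25, beside 32.2% of all genes. Cxcl12, Ccl27a, Ccl28 and Ccr10 did not pass. The median log2 fold change of the 37 members was 2.94, and that of all genes tested was 0.02. A gene silent in the Con mice could enter this test only by being high with adenine, so the 15 members whose reads passed the filter in the Con mice alone were also counted: 10 were higher and 2 lower, beside 30.4% and 36.1% of the 12848 genes that passed in the same way. Their median log2 fold change was 1.99, against -0.04 for those genes. In 30 of the 37 members every Ade mouse was above every Con mouse, as in 22.4% of all genes tested, and in 0 members below, as in 20.6%. In bulk kidney RNA, more cells of a type and more RNA per cell cannot be told apart.

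The Ade + IMC group was above the Con group in 30 of the 36 members tested, with 30.9% of 14578 genes called higher. Ackr3 alone was called lower, beside 32.3% of all genes. The median log2 fold change of the members was 2.56 against -0.02 for all genes. Among the 15 members that passed in the Con mice alone, 10 were higher and 1 lower, beside 26.4% and 36.1% of the 12848 genes, with a median of 1.70 against -0.07. In 26 of the 36 members every Ade + IMC mouse was above every Con mouse, as in 20.5% of the genes tested, and in 0 members below, as in 16.4%. Both comparisons share the 5 Con mice. Each mouse is a separate animal, so the tests measure the spread between animals.

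Several marker lists moved with these groups, and their part in the chemokine values was not tested. The 9 macrophage and monocyte markers summed to 202 to 243 CPM in the Con mice, 1358 to 2191 with adenine and 1205 to 2072 with adenine and IMC, and all 9 were called higher in both adenine groups. For the 6 T cell markers the sums were 7.18 to 13.8, 58.3 to 197.8 and 59.6 to 286 CPM, for the 5 neutrophil markers measured (of 8 listed) 2.74 to 4.55, 20.97 to 41.0 and 14.6 to 51.7 CPM, and for the 5 dendritic cell markers 31.7 to 43.1, 111 to 184 and 87.2 to 178 CPM. The 4 B and plasma cell markers ran from 2.99 to 8.88, 23.4 to 856 and 57.1 to 2479 CPM, the 3 natural killer cell markers from 0.606 to 2.21, 3.94 to 11.9 and 4.10 to 11.9 CPM, and the 4 eosinophil and mast cell markers from 0 to 0.303, 2.54 to 5.51 and 0.859 to 12.8 CPM. Ptprc, the pan-leukocyte gene, was at 19.1 to 29.6, 92.8 to 226 and 83.7 to 347 CPM, and the 4 fibroblast markers at 196 to 252, 1108 to 1448 and 1000 to 1546 CPM. The labelled tissue showed its own markers in every mouse: the 5 proximal tubule genes summed to 9524 to 14501 CPM in the Con mice, 1367 to 5603 with adenine and 2291 to 4655 with adenine and IMC. The 3 genes of the thick ascending limb and distal tubule summed to 6901 to 11047, 3320 to 7114 and 5773 to 9531 CPM in the 3 groups, 2 of them called lower in both comparisons with Con, and the 2 collecting duct genes, both called lower in both, to 177 to 363, 77.0 to 145 and 134 to 254.5 CPM. The 3 podocyte markers summed to 195 to 275.5, 34.95 to 247 and 155 to 381.5 CPM in the 3 groups, with 0 called in either comparison with Con. The 4 endothelial markers summed to 349 to 539, 240 to 452 and 284 to 582 CPM. Of these, 2 were called lower in the Ade group, and 1 higher and 1 lower in the Ade + IMC group. Fat markers reached 4.77 CPM with the control diet, 35.7 with Ade and 150.5 with Ade + IMC (mouse 212), and lymph node stroma markers at most 1.13 CPM. Mouse 311 of the Ade + IMC group stood apart: its T cell (286 CPM), B and plasma cell (2479) and Ptprc (347) values were the highest of all 17 mice. Mouse 308 of the Ade group had the smallest library and the highest T cell sum of its group (197.8 CPM).

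**Figure D2:**
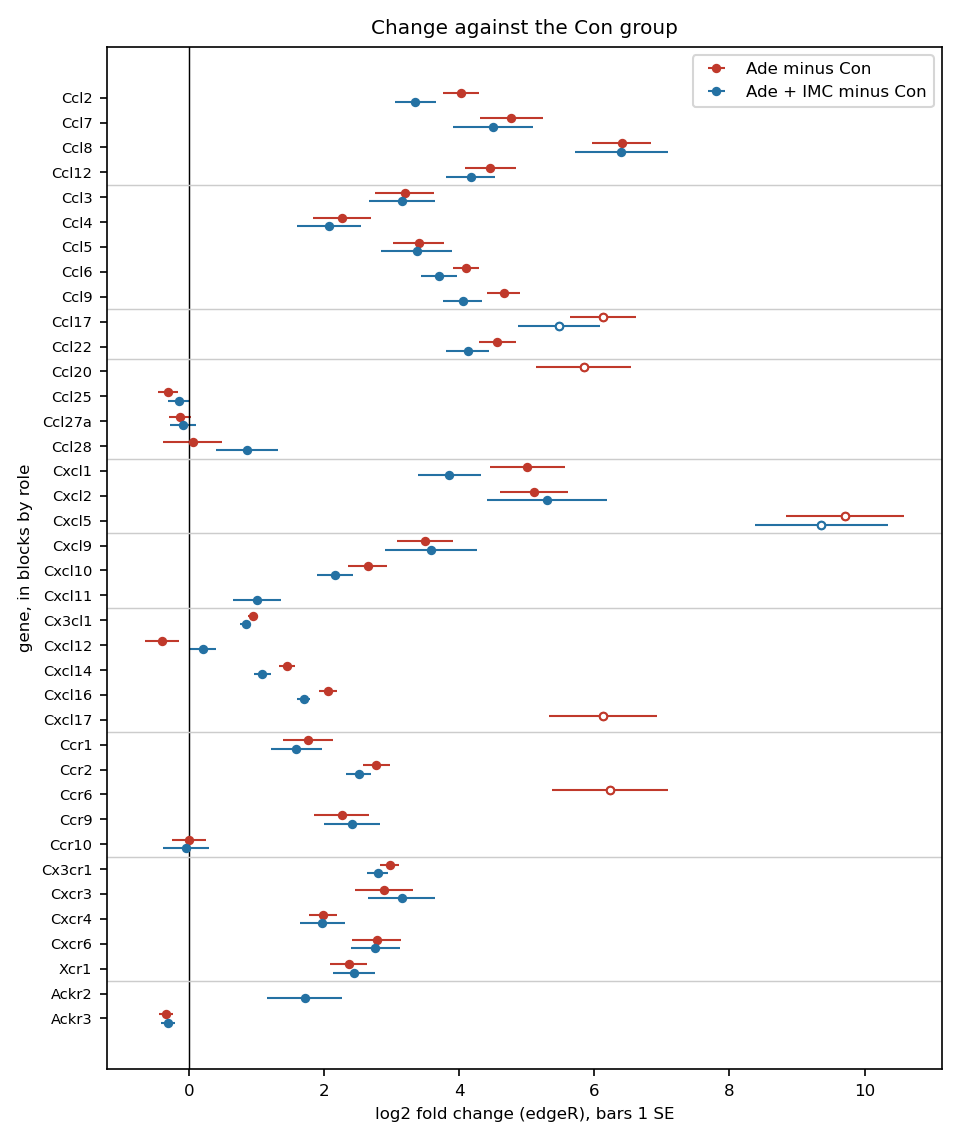
Points are edgeR log2 fold changes (horizontal axis, bars 1 SE) of members tested, in blocks by role, for the Ade group (red) and the Ade + IMC group (blue) against the Con group, with open points for genes with 3 or fewer reads in all Con mice together. For each group 4 points lie left of 0, those of Ackr3, Ccl25 and Ccl27a together with Cxcl12 for Ade and Ccr10 for Ade + IMC.

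The monocyte chemoattractants Ccl2, Ccl7, Ccl12 and Ccl8 lie close together on chromosome 11, between 82035571 and 82116799 (GRCm38) with the eotaxin gene Ccl11 among them. Ccl2, Ccl7 and Ccl12 are ligands mainly of Ccr2, and mouse Ccl8, grouped with them here, is known as a ligand of Ccr8. All 4 rose in both adenine groups. Ccl2 (ENSMUSG00000035385), at 1.51, 0.866, 0.813, 0.520 and 0.784 CPM in the Con mice, ran from 9.47 through a median of 14.7 to 19.9 in the Ade group and from 6.01 through 9.13 to 15.3 in the Ade + IMC group. Neither adenine group overlapped the Con group, but they overlapped each other. Ccl8 showed the larger change and the wider spread, from 0.131 to 0.706 CPM with the control diet to 18.3 to 54.6 (median 28.0) with adenine and 12.99 to 82.3 (median 23.0) with adenine and IMC. Its log2 fold change was 6.41 (SE 0.44, adjusted p = 7.97e-08) for Ade and 6.4 (SE 0.69, adjusted p = 7.67e-06) for Ade + IMC, and 5.81 for Ade + IMC without mouse 311. Ccl7 was at 0, 0.433, 0.135, 0.39 and 0.261 CPM with the control diet, ran from 3.38 through 6.36 to 10.02 with adenine, and from 1.03 through 6.46 to 7.596 with adenine and IMC, and Ccl12 went from at most 0.578 CPM to 7.51 ± 1.98 (SD, n = 6) and 6.31 ± 1.07. Their receptor Ccr2, which marks inflammatory monocytes, rose from 9.83 ± 3.20 CPM (SD, n = 5) to 66.1 ± 14.0 and 57.1 ± 9.04.

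A second group of CC genes sits on the same chromosome between 83525778 and 83664683, in the order Ccl5, Ccl9, Ccl6, Ccl3 and Ccl4, and its products act on Ccr1 among other receptors. All 5 rose in both adenine groups. Ccl9 and Ccl6, both products of myeloid cells, changed the most. In the Con mice Ccl9 was at 2.32, 1.16, 2.302, 2.73 and 1.83 CPM. Its lowest, median and highest Ade values were 31.0, 50.6 and 69.0 CPM, and its Ade + IMC values 22.0, 33.9 and 56.4. This is 25.3-fold in the Ade group (log2 fold change 4.66, SE 0.24, adjusted p = 1.15e-08) and 16.6-fold in the Ade + IMC group (4.05, SE 0.29, adjusted p = 3.38e-07). Ccl6 was at 3.84, 3.9, 2.84, 4.16 and 4.7 CPM in the 5 Con mice, 43.0 to 88.3 (median 66.0) with adenine and 33.9 to 83.2 (median 47.9) with adenine and IMC, which is 17.1-fold and 13-fold. Ccl5, released by T cells and activated tissue cells, went from 2.19 ± 1.25 to 22.6 ± 9.77 and 22.7 ± 16.6 CPM, with mouse 311 at 53.9 CPM the highest of the Ade + IMC group. Ccl3 and Ccl4, made by activated macrophages, rose less, 9.15-fold and 4.82-fold in the Ade group. Ccr1, a receptor of several of them on monocytes and neutrophils, rose 3.41-fold in the Ade group and 3.01-fold in the Ade + IMC group.

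Among the ligands of Ccr4, Ccr3 and Ccr8, Ccl17 and Ccl22 were called. Both are released by dendritic cells and macrophages, bind Ccr4 on regulatory and type 2 helper T cells, and lie on chromosome 8 on either side of Cx3cl1, from 94745590 to 94812036. Ccl22 rose from 0.404, 0.289, 0.677, 0.779 and 0.653 CPM with the control diet to 9.66 to 18.5 (median 12.9) with adenine and 6.16 to 14.5 (median 10.5) with adenine and IMC. Its log2 fold changes were 4.57 (SE 0.28, adjusted p = 3.02e-08) and 4.13 (SE 0.32, adjusted p = 6.33e-07). Ccl17 had 1 read in all Con mice together (mouse 201, 0.101 CPM), and ran from 1.91 through 2.86 to 3.84 CPM with adenine (129 reads) and from 1.15 through 1.67 to 3.22 CPM with adenine and IMC (82 reads). The ratio of the pooled CPM was 111 for Ade (exact 95% interval 19.6 to 4435) and 73.0 for Ade + IMC (12.7 to 2919), intervals that cover counting error only. Ccl24, a ligand of Ccr3, had 0 Con reads and was at least 8.64-fold higher in the Ade group (30 reads) and at least 3.86-fold higher in the Ade + IMC group (13 reads), each against a floor of 3 reads over the Con group. Ccl11, the T cell product Ccl1 and the receptors Ccr3 and Ccr8 had 10 to 88 reads per adenine group and were too low for the main test against Con. Ccr8 had 1 Con read, 52 Ade reads and 36 Ade + IMC reads.

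Ccl20 and Ccr6 form a ligand and receptor pair that draws B cells, interleukin 17 producing T cells and immature dendritic cells. Ccl20 (ENSMUSG00000026166, chromosome 1, 83116766 to 83119167) was at 0, 0, 0, 0.130 and 0.131 CPM in the Con mice, 1.42 to 6.02 (median 4.35) with adenine and 1.002 to 3.83 (median 1.92) with adenine and IMC. The pooled ratio to the Con group was 74.7 (exact 95% interval 20.4 to 622) for Ade and 42.3 (11.4 to 354) for Ade + IMC, and the adjusted p of edgeR for Ade was 1.1e-05. Ccr6 (ENSMUSG00000040899, chromosome 17, 8236043 to 8257141) was at 0.101 CPM in Con mouse 201 and at 0 in the other 4 Con mice. It ran from 1.25 through a median of 2.01 to 6.85 CPM with adenine and from 0.440 through 1.38 to 18.3 with adenine and IMC. These were 1, 134 and 216 reads, and its adjusted p for Ade by edgeR was 3.61e-05. The Ade + IMC total rested on mouse 311, at 18.3 CPM, while the other 5 mice of the group lay between 0.440 and 3.47 CPM. Neither gene passed the read filter for the Ade + IMC against Con test. In an edgeR fit over all 17 mice their adjusted p-values for that comparison were 2.98e-05 (Ccl20) and 0.0006 (Ccr6).

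The remaining CC ligands of epithelia were Ccl25, Ccl28 and Ccl27a. Ccl25, the ligand of Ccr9, fell by 0.31 on the log2 scale in the Ade group (SE 0.15, adjusted p = 0.0847), a call that was lost with DESeq2 (log2 fold change -0.34), under upper-quartile scaling (-0.25) and on leaving out any of 8 single mice (-0.24 to -0.32). Its CPM was 4.84, 3.90, 4.74, 4.16 and 5.62 in the Con mice, 3.41 to 4.06 (median 3.65) with adenine and 3.71 to 5.13 (median 4.03) with adenine and IMC. Of its exonic bases, 204 overlap Elavl1 on the other strand. Ccl28, the mucosal ligand of Ccr10 and Ccr3, was scattered in the Con mice at 70.5, 10.8, 14.1, 47.4 and 18.0 CPM and did not differ from them by the test in the Ade group (33.1 ± 13.5 CPM, SD, n = 6, adjusted p = 0.921) or in the Ade + IMC group (60.2 ± 29.5 CPM, adjusted p = 0.13). The lowest, median and highest mice were at 16.4, 32.6 and 56.0 CPM with adenine and at 31.2, 50.8 and 114 with adenine and IMC. The latter group was called higher without Con mouse 201 (log2 fold change 1.37) or without mouse 212 (1.0). Ccl27a, whose reads may be shared with near-identical copies, was at 5.69 ± 0.997, 5.13 ± 0.664 and 5.46 ± 1.38 CPM with control diet, adenine and adenine with IMC. Ccr10 was at 1.43 ± 0.374, 1.44 ± 0.284 and 1.39 ± 0.672 CPM.

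The neutrophil attracting ligands of Cxcr2 form a cluster on chromosome 5, from Cxcl5 at 90759360 through Cxcl3, Cxcl15 and Cxcl1 to the end of Cxcl2 at 90905938. To show what 3 of these neighbours share, 150 bases upstream of the annotated start (from -180 to -31) are printed for Cxcl1, Cxcl2 and Cxcl3 with those of Ccl20 and Cxcl10, which also hold matches, from RefSeq promoters of GRCm38.p6, each on its gene's own strand. Capitals mark matches, on either strand, to GGGAA followed by any 3 bases and CC, a form of the binding motif of NF-kB, the transcription factor that drives many inflammatory genes.
Cxcl1, chr5:90891065-90891214, plus strand: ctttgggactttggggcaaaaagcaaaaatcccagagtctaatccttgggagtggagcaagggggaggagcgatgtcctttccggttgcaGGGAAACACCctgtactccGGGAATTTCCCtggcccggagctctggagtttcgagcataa
Cxcl2, chr5:90903719-90903868, plus strand: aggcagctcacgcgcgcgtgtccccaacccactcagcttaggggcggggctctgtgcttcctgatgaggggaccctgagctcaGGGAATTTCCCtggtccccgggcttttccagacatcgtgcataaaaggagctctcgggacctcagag
Cxcl3, chr5:90785921-90786070, plus strand: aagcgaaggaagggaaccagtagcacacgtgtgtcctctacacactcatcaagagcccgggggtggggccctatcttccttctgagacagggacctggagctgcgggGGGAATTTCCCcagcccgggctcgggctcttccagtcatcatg
Ccl20, chr1:83116586-83116735, plus strand: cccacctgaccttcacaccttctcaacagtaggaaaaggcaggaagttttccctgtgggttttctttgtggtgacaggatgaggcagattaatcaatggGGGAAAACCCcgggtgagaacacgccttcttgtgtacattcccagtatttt
Cxcl10, chr5:92348920-92349069, minus strand: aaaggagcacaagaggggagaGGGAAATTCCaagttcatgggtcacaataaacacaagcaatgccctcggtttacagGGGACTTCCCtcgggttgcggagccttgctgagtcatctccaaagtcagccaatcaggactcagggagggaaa

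Cxcl1, Cxcl2 and Cxcl3 carried the same 10 bases, GGGAATTTCC, beginning at positions -71, -97 and -73 from the RefSeq start. The motif was chosen after these sequences had been seen, so the counts are a description. Of the 39 members in the promoter table (250 bases before to 50 after each start), 9 held it, or 23.1%, against 6.59% of the 27025 genes of the table. They were Ccl1, Ccl20, Cxcl1, Cxcl2, Cxcl3, Cxcl9, Cxcl10, Ccr3 and Ccr6. Cxcl15, which lies between Cxcl3 and Cxcl1, was in the table and held no match. Members in the table without a match also included Ccl6, Ccl8, Ccl9, Ccl12, Ccl17 and Ccl22, each called higher in both adenine groups. Because the motif reads almost the same on both strands, GGGAATTTCC also matches on the other strand shifted by 1 base, and it was counted once per gene. Members with no entry included Ccl2, Ccl4, Ccl5, Ccl7, Ccl11, Ccl24, Cxcl5, Cxcl11, Cxcl16, Cxcl17 and Ccr10. A match is a run of letters and not a bound site, and no binding was measured. The NF-kB subunit genes themselves, Nfkb1 and Rela, rose by 1.21 and 0.91 on the log2 scale in the Ade group (SE 0.09 and 0.10, edgeR adjusted p = 1.26e-07 and 7.33e-06). In the Ade + IMC group they rose by 1.04 and 0.71 (SE 0.14 and 0.08, edgeR adjusted p = 4.68e-05 and 1.01e-05). Higher calls made up 35.1% and 30.9% of all genes in these comparisons. The mRNA of these genes is not a measure of NF-kB activity, and its link to the chemokine values was not tested.

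Of the Cxcr2 ligands, Cxcl5, Cxcl2 and Cxcl1 were tested and rose in both adenine groups. Cxcl5 (ENSMUSG00000029371), a product of epithelial cells, had 0 reads in all 5 Con mice, 617 with adenine and 481 with adenine and IMC. Against the floor of 3 reads it was at least 178-fold higher in the Ade group and at least 143-fold higher in the Ade + IMC group. Its Ade values ran from 3.65 through a median of 14.6 to 19.7 CPM and its Ade + IMC values from 4.08 through 9.92 to 18.1 CPM. Cxcl2 was at 0, 0.578, 0.271, 0.260 and 0.261 CPM in the Con mice and 3.25 to 13.4 (median 9.40) with adenine. In the Ade + IMC group it fell into separate levels, with mice 211, 212 and 310 at 12.4, 21.8 and 22.8 CPM and mice 311, 410 and 412 at 3.63, 2.29 and 2.49 CPM. Cxcl5 followed the same division, 13.4, 18.1 and 17.6 CPM in the first 3 mice and 4.08, 5.73 and 6.45 CPM in the others. Cxcl1 was at 0.202, 1.01, 0.813, 0.130 and 0.523 CPM in the Con mice, 5.41 to 28.5 (median 13.8) with adenine and 4.08 to 13.5 (median 7.299) with adenine and IMC. Its log2 fold change was 5.01 (SE 0.55, adjusted p = 5.18e-06) for Ade and 3.85 (SE 0.47, adjusted p = 1.99e-05) for Ade + IMC. Cxcl3 had 0 Con reads and was at least 21-fold and 18.7-fold higher in the Ade and Ade + IMC groups. The receptor Cxcr2 itself, borne by neutrophils, had 2, 69 and 52 reads with control diet, adenine and adenine with IMC, a pooled ratio to Con of 29.8 (exact 95% interval 7.94 to 251) and 23.2 (6.10 to 196). Cxcl15 was near the floor with 3, 25 and 33 reads.

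**Figure D3:**
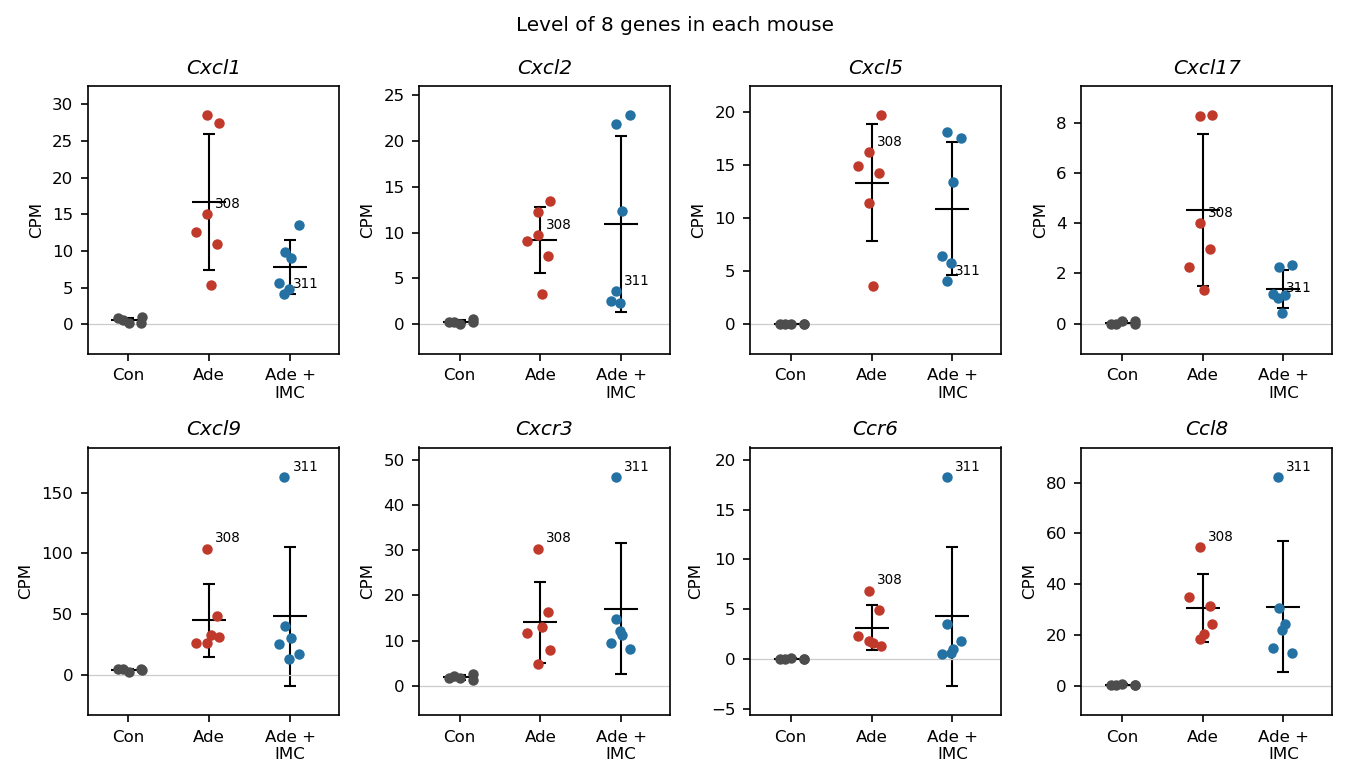
Points are CPM (vertical axis, linear) of 8 genes in each mouse of the Con (grey), Ade (red) and Ade + IMC (blue) groups, with the mean (bar) and SD (whiskers) and mice 308 and 311 numbered. Mouse 311 is highest of its group for Cxcl9, Cxcr3, Ccr6 and Ccl8 and lowest for Cxcl1 and Cxcl5, and Cxcl17 stays at or below 2.35 CPM with adenine and IMC.

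The interferon induced ligands of Cxcr3 are neighbours on the minus strand of the same chromosome, from Cxcl9 at 92321347 to the end of Cxcl11 at 92365485. Cxcl9 (ENSMUSG00000029417) was at 2.22, 3.90, 4.60, 5.07 and 4.57 CPM in the Con mice. It ran from 26.5 through a median of 31.96 to 104 CPM with adenine and from 12.9 through 27.7 to 163 CPM with adenine and IMC. Mouse 308 held the highest Ade value and mouse 311 the highest Ade + IMC value, the same mice that stood highest for T cell markers in their groups. Cxcl9 was called higher in both groups, with log2 fold changes of 3.49 (SE 0.42, adjusted p = 1.07e-05) and 3.58 (SE 0.68, adjusted p = 0.000621). Without mouse 308 the first was 3.06, and without mouse 311 the second was 2.63. Cxcl10 was at 4.24, 4.04, 6.77, 8.44 and 9.02 CPM with the control diet, 28 to 71.8 (median 36.3) with adenine and 19.5 to 44.4 (median 26.9) with adenine and IMC. It rose 6.27-fold and 4.47-fold, and 133 of its exonic bases overlap Art3. Cxcr3, the receptor, was at 1.61, 1.30, 1.76, 2.598 and 2.22 CPM in the Con mice, 4.83 to 30.4 (median 12.4) with adenine and 8.16 to 46.3 (median 11.7) with adenine and IMC. Its log2 fold change was 2.89 (SE 0.43, adjusted p = 7.5e-05) for Ade and 3.15 (SE 0.49, adjusted p = 0.000139) for Ade + IMC, the latter 2.53 without mouse 311. Cxcl11, annotated as a polymorphic pseudogene with 1582 exonic bases under an antisense gene, passed the read filter against Con for Ade + IMC, where it was higher (log2 fold change 1.01, SE 0.36, adjusted p = 0.0274). In the edgeR fit over 17 mice it did not pass for Ade (0.73, SE 0.40, adjusted p = 0.122).

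Cx3cl1, Cxcl16, Cxcl14 and Cxcl17 were the other ligands called. Cx3cl1 and Cxcl16 are made as membrane proteins and shed, and both started from high levels. Cx3cl1 rose 1.93-fold in the Ade group and 1.79-fold in the Ade + IMC group, from 126 ± 9.07 CPM to 240.8 ± 15.6 and 230.8 ± 21.2, while its receptor Cx3cr1, a marker of resident macrophages, rose 7.86-fold and 6.96-fold. Cx3cr1 was at 10.5, 10.3, 11.6, 8.57 and 8.49 CPM in the Con mice, 59.1 to 92.4 (median 78.1) with adenine and 55.4 to 90.4 (median 67.9) with adenine and IMC. Cxcl16 was at 39.5, 43.2, 39.3, 44.4 and 44.8 CPM in the 5 Con mice, 119 to 210.5 (median 175) with adenine and 117 to 155 (median 146) with adenine and IMC. It rose 4.19-fold and 3.25-fold, and its receptor Cxcr6, found on memory T cells, 6.86-fold and 6.77-fold. Of the exonic bases of Cxcl16, 552 overlap Zmynd15 on the other strand. Cxcl14 (ENSMUSG00000021508), an epithelial ligand, was at 31, 35.2, 46, 32.5 and 47.3 CPM with the control diet, 90.9 to 111 (median 105) with adenine and 67.6 to 94.5 (median 83.5) with adenine and IMC. It rose 2.74-fold and 2.12-fold (log2 fold change 1.45, SE 0.12, and 1.09, SE 0.13, adjusted p = 4.64e-07 and 1.58e-05). Cxcl17 (ENSMUSG00000060188, chromosome 7, 25400053 to 25412886), a mucosal ligand, was at 0.101, 0, 0, 0.13 and 0 CPM in the 5 Con mice, 1.35 to 8.30 (median 3.49) with adenine and 0.429 to 2.35 (median 1.15) with adenine and IMC. The 2 Con reads stood against 213 and 63 reads, pooled ratios of 92.0 (exact 95% interval 25.2 to 765) and 28.1 (7.45 to 237). Cxcl12 (ENSMUSG00000061353) did not pass in either comparison. It was at 234, 312, 345, 208 and 279 CPM in the Con mice, 118 to 342 (median 193) with adenine and 193 to 428 (median 327) with adenine and IMC. Without mouse 407 of the Ade group, the highest of that group at 342 CPM, Cxcl12 was called lower in the Ade group (log2 fold change -0.61, adjusted p = 0.0284), as it was when mice were blocked by their leading digit (-0.68, adjusted p = 0.0183). Its receptor Cxcr4 rose 3.97-fold and 3.94-fold, from 8.44 ± 1.06 CPM to 33.0 ± 10.4 and 33.5 ± 20.2, with mouse 311 at 73.1 CPM.

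The dendritic cell receptor Xcr1 rose 5.16-fold in the Ade group and 5.45-fold in the Ade + IMC group. Xcl1, its ligand from T and natural killer cells, passed the read filter in neither main test, with 11, 80 and 69 reads with control diet, adenine and adenine with IMC. In the edgeR fit over 17 mice it was higher in both (log2 fold change 2.61, SE 0.57, adjusted p = 0.00072, and 2.38, SE 0.58, adjusted p = 0.00199). That fit also called Cxcl3, Cxcr2 and Ccr4 higher in both comparisons, and Cxcl17 for Ade + IMC (4.42, SE 0.86, adjusted p = 0.00032). Ccr4, with 8, 68 and 68 reads, changed by 2.81 (SE 0.64) and 2.77 (SE 0.64). Ccr9 rose 4.79-fold and 5.33-fold, but 1954 of its exonic bases lie under genes of the other strand and 269 under genes of its own. Ackr3 (ENSMUSG00000044337, chromosome 1, 90203980 to 90216751) was the member called lower in both comparisons. It was at 66.6, 56.9, 61.8, 65.6 and 53.2 CPM in the Con mice, 40.3 to 61.3 (median 45.1) with adenine and 39.0 to 61.2 (median 48.7) with adenine and IMC, so the ranges overlapped. It fell by 0.34 on the log2 scale in the Ade group (SE 0.11, adjusted p = 0.0129) and by 0.31 in the Ade + IMC group (SE 0.10, adjusted p = 0.0228). Ackr2, a scavenger of CC ligands, passed the read filter against Con for Ade + IMC, where it was higher (log2 fold change 1.72, SE 0.56, adjusted p = 0.0185), with mouse 311 at 6.69 CPM and a group median of 2.004. In the edgeR fit over 17 mice it did not pass for Ade (log2 fold change 1.02, SE 0.52, adjusted p = 0.101). Ackr1, which carries chemokines across venule endothelium, had 2, 60 and 29 reads in the 3 groups, with 361 exonic bases in common with Cadm3. Ackr4, with 28, 35 and 22 reads and 479 bases shared with Acad11, was not tested.

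The machinery behind the receptors was read from 2 lists. Of 50 measured genes of receptor signalling, 41 were called higher and 3 lower in the Ade group, with a median log2 fold change of 0.93 against 0.02 for all genes, and 40 higher and 4 lower in the Ade + IMC group (median 0.84). Of all genes, 35.1% were higher and 32.2% lower with Ade, and 30.9% and 32.3% with Ade + IMC. Rgs1, which dampens receptor signalling, went from 0.352 ± 0.190 CPM to 6.60 ± 2.38 and 6.05 ± 3.63. Pik3r5, a regulatory subunit of phosphoinositide 3-kinase gamma, went from 2.23 ± 0.586 to 37.3 ± 7.63 and 28.2 ± 11.97, and Rac2, the leukocyte Rac GTPase, from 6.77 ± 1.21 to 70.8 ± 23.9 and 74.4 ± 54.8. Gnai1 and Ptk2b were among the genes called lower in both groups, and Gnai3 was called lower in the Ade + IMC group. Gnai1 fell by 1.02 on the log2 scale in the Ade group, while Gnai2, the main inhibitory G protein subunit of leukocytes, rose by 1.04. Of 10 tested genes of related ligands, receptors and regulators, 7 were higher and 2, Mif and Dpp4, lower in both comparisons, beside those same shares of all genes. Dpp4, a peptidase that clips Cxcl12 and other ligands, fell by 0.77 and 0.73 on the log2 scale. The platelet and macrophage ligand Pf4 and the chemerin gene Rarres2 rose by 3.24 and 1.75 in the Ade group.

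Setting Ade + IMC against Ade asked whether IMC moved these genes in injured kidneys. In a limma-trend fit of log2(normalized count + 1), 0 of the 43 members tested were called, as were 0 of 14696 genes. At an unadjusted p-value below 0.05 7 members were lower and 2 higher with IMC, beside 3.35% and 3.37% of all genes. Without a block, neither edgeR nor DESeq2 on the recovered reads called a member, and over all genes edgeR called 0 of 14657 and DESeq2 21 higher and 16 lower of 21287. The study's own DESeq2 analysis reported more genes than this as changed between these groups. By qPCR it reported lower Ccl2 and Ccl20 with IMC. Why the calls differ was not tested. On this scale, which understates changes of genes with few reads, the median difference of the members was -0.21 and that of all genes 0.01. Of the 43 members 31 had a negative difference, as did 48.4% of all genes. In 0 members did the groups separate without overlap, which in all genes was also rare (0.129% higher and 0.0953% lower). The medians were -0.29 for the 29 ligands and -0.10 for the 14 receptors.

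The members past the unadjusted threshold were Cxcl14, Cxcl17, Ccl2, Ccl9, Cxcl1, Ccl17 and Cxcl16 (lower) and Ccl28 and Cxcl12 (higher). For the first 8 by p-value and for Ccl20, the difference was also tested over mice by a two-sided exact permutation test (924 splits, smallest possible p 0.00216). Cxcl14 had normalized counts of 677 to 823 (median 789) with adenine and 501 to 706 (median 622) with adenine and IMC. It was lower by -0.33 (SE 0.09, limma adjusted p = 0.643, exact permutation p = 0.00433). Cxcl17 had the widest difference. Its normalized count was 10.1 to 62.4 (median 26.2) with adenine and 3.14 to 17.4 (median 8.51) with adenine and IMC, a log2 fold change of -1.51 (SE 0.47, limma adjusted p = 0.711, exact permutation p = 0.0152). Cxcl1 ran from 40.3 through 103 to 212 and from 30.7 through 54.1 to 100.2, a log2 fold change of -1.01 (SE 0.40, limma adjusted p = 0.711, exact permutation p = 0.0476). The log2 fold changes of Ccl2, Ccl17, Ccl9 and Ccl20 were -0.66, -0.62, -0.60 and -0.77. Their exact permutation p-values were 0.0303, 0.0346, 0.0563 and 0.132. Cxcl12 ran from 889 through 1444 to 2545 with adenine and from 1430 through 2419 to 3131 with adenine and IMC. It was higher by 0.70 (SE 0.27, limma adjusted p = 0.711, exact permutation p = 0.0519), and Ccl28 by 0.82 (SE 0.31, limma adjusted p = 0.711, exact permutation p = 0.0476). Values of the groups overlapped for all 9 genes.

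**Figure D4:**
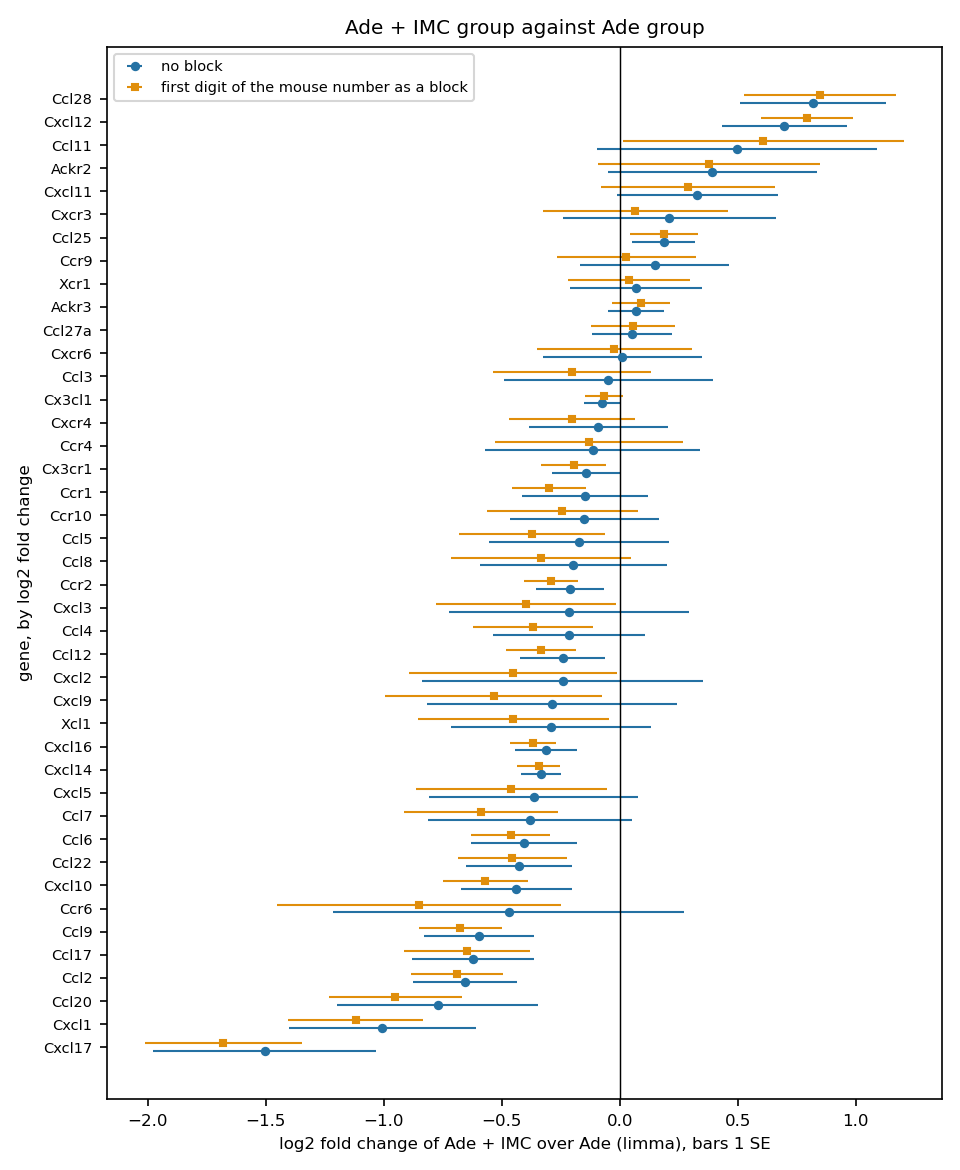
Points are limma log2 fold changes of Ade + IMC over Ade (horizontal axis, bars 1 SE) for 42 of the members tested, ordered by size, without a block (blue circles) and blocked by the leading digit of the mouse numbers (orange squares). Without a block 30 of the 42 points lie left of 0, and Cxcl17 lies farthest left at -1.51.

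Mouse numbers begin with 2, 3 or 4, and what that digit stands for is not stated. Digit 3 held 1 Ade mouse, 308, which had the smallest library, so each difference within digit 3 rests on that mouse. Within the digits 2, 3 and 4 the difference between Ade + IMC and Ade was -2.28, -1.31 and -1.39 for Cxcl17, -1.56, -1.01 and -0.81 for Cxcl1, -0.39, -0.39 and -0.28 for Cxcl14, -0.83, -1.14 and -0.95 for Ccl20, -0.33, -1.37 and -0.62 for Ccl2, and -0.28, -0.94 and -0.86 for Ccl9. For Cxcl12 it was 1.25, 0.66 and 0.49. The sign was the same in each digit for these 7 genes, but all except Ccl20 had been chosen for a small p in this comparison of the same mice, out of 43 members, so neither the shared sign nor the permutation p-values are independent of that choice. For Ccl17 the difference was 0.08, -1.31 and -0.89, a change of sign. Ccl28, chosen in the same way, was positive in each digit as well, at 0.05, 2.16 and 0.79. Permuted within the digit (180 splits, smallest possible p 0.00556), the exact p-values were 0.00556 for Cxcl14, 0.0111 for Cxcl17, 0.0167 for Cxcl1 and Ccl20, 0.0222 for Ccl2 and Ccl9, 0.0278 for Cxcl12, 0.05 for Ccl17 and 0.0667 for Ccl28. With the digit as a block in limma, Cxcl17 alone of the members was called (log2 fold change -1.68, SE 0.33, adjusted p = 0.0627), beside 0.408% of all genes called lower and 0.497% called higher. In that fit an unadjusted p below 0.05 was reached by 6.26% of all genes downward and 7.4% upward. That call was lost on leaving out any of 9 single mice, with log2 fold changes of -1.48 to -1.92 in those fits. It remained without mouse 407, 310 or 311, and then 7, 2 and 5 members were called lower and Cxcl12 was called higher in each case. Calls over all genes grew in the same fits, from 60 lower and 73 higher with every mouse to 290 and 364 of 14713 genes without mouse 407, 159 and 130 of 14714 without mouse 310, and 268 and 297 of 14659 without mouse 311. In DESeq2 the same block called Ccl2, Ccl9, Ccl20, Cxcl1, Cxcl10, Cxcl14, Cxcl16 and Cxcl17 lower and Cxcl12 higher, beside 256 lower and 335 higher of 21287 genes.

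Within the adenine groups the members did not move as a single block from mouse to mouse. Of the 43 members, mouse 308 held the highest Ade value in 21 and mouse 407 the lowest in 20. Mouse 308 led in Ccl2, Ccl8, Ccl5, Cxcl9, Cxcl10, Ccr6 and Cxcr3 but mouse 208 in Cxcl2, Cxcl3, Cxcl5, Cxcl17, Ccl6 and Ccl9. In the Ade + IMC group mouse 311 held the highest value in 18 members, 12 of them receptors, and the lowest in 6, among them Ccl2, Cxcl1 and Cxcl5. The summed CPM of the Cxcr2 ligands was 12.7 in mouse 311 and 37.7 to 56.7 in mice 211, 212 and 310, and mice 410 and 412 were near mouse 311 at 15.03 and 15.7. The summed CPM of all 19 receptors was 453 in mouse 311 and 239.5 to 310.5 in the other 5 mice. Mouse 407 had the highest proximal tubule sum of the Ade group (5603 CPM) and the lowest macrophage and monocyte sum (1358 CPM), and mouse 311 the lowest proximal tubule sum of its group (2291 CPM). Without mouse 311, the log2 fold changes of Ade + IMC over Ade were -0.76 for Cxcl9 and -1.12 for Ccr6, in place of -0.29 and -0.47. For both genes edgeR on the recovered reads of all 12 mice gave the opposite sign, 0.09 and 0.49. That of Cxcr3 changed sign from 0.21 to -0.14, and none of the 3 passed with or without the mouse.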

How the data were processed

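Kidney RNA of 17 mice was analysed (5 Con, 6 Ade, 6 Ade + IMC). The authors deposited raw gene counts for Con and Ade and normalized counts for Ade and Ade + IMC. The signal values are counts the authors divided by a DESeq2 size factor for each mouse. Libraries were made with TruSeq kits and read as single ends. The study's methods name STAR and mm10, whereas the submitters' processing notes list Trimmomatic 0.39, FastQC 0.11.8, Bowtie2 2.2.5, HTSeq 0.9.1 and DESeq2. Which gene annotation was counted, and whether by strand, is not given in the sources used here.

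Whole reads were recovered from the normalized counts, and 0 values differed from the raw counts where both were given. Ade and Ade + IMC were each set against Con by edgeR's quasi-likelihood test (edgeR 4.0.16, R 4.3.3, TMM, filterByExpr). Ade + IMC was set against Ade by limma-trend (limma 3.58.1) on log2(normalized count + 1), for genes with a mean of at least 10. p-values were adjusted by Benjamini-Hochberg over all genes tested and called below 0.1. DESeq2 1.42.0, other scalings, filters, pseudocounts and thresholds, a block on the leading digit of the mouse number, and leaving out each mouse were alternatives. Scripts were tested on simulated data. Exonic lengths and coordinates are those of GENCODE on GRCm38, and promoters are RefSeq's.

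The members and lists were chosen with earlier results of these data known. Values of every mouse (in groups over 5, the lowest, median and highest) are given for Ccl2 and Ccl20, for the pair of called members with the largest change against Con in each role group, for members called lower, and for up to 8 members with an unadjusted p below 0.05 in Ade + IMC against Ade. The signalling genes named, and Cxcl3, Cxcr2 and Cxcr4 where single mice or read totals are given, were picked with their values in view. The authors' own table of fold changes and p-values was used for gene symbols only. A member and a signalling gene are counted in the totals but not reported here by name or drawn. Intervals and floors cover counting error only.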

Additional observations from a re-analysis of the deposited data

Results flagged for a closer look

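In 74 groups of values a single mouse was looked for that lay far from the rest of its group (the gap to its neighbour over the whole range, against Dixon's critical value). Chance alone gives such a mouse in about 1 of 20 groups, or about 4 here, and 9 were found. Of these, the pair in Con mouse 201 is no more than a lone read set against 0 in the other 4 mice, which meets the criterion by construction, so the 9 are not read against chance. Mouse 311 of the Ade + IMC group lay far above the other 5 mice in Ccl8 (82.31 CPM against 12.99 to 30.73), Cxcl9 (163.4 against 12.88 to 40.54), Ccr6 (18.25 against 0.4398 to 3.468) and Cxcr3 (46.26 against 8.156 to 14.83). Mouse 308 of the Ade group lay far above its group in Cxcl9 (104.3 CPM against 26.46 to 48.52) and Cxcl10 (71.84 against 28 to 38.07), and far below it in total counted reads (5444833 against 7166746 to 7673215). Con mouse 201 had the single Con read of Ccl17 and that of Ccr6 (0.1009 CPM each, against 0 in the other 4 mice).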

How the results depend on the processing

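Members called higher numbered 30 to 43 in Ade against Con and 24 to 44 in Ade + IMC against Con over all alternatives, and DESeq2 and a fit with no filter on low counts gave the upper ends because they tested all 51 members. The 24 were of 30 members tested without mouse 211 and of 29 without mouse 311. Over the same alternatives 4700 to 6123 of all genes were called higher in the first comparison and 4019 to 5332 in the second. Members called lower in Ade against Con fell from 2 to 1 (Ackr3) with DESeq2, upper-quartile scaling, no filter or a threshold of 0.05, and ranged from 1 to 3 on leaving out single mice. In Ade + IMC against Ade, 0 members were called in any setting without the block. With the replicate block on the leading digit of the mouse number 1 was called lower (Cxcl17, limma adjusted p = 0.0627), as with edgeR on recovered reads (adjusted p = 0.0711), while DESeq2 with the block called 8 lower and 1 higher, beside 256 and 335 of 21287 genes. Leaving out single mice with the block, an alternative chosen after seeing the data, gave 0 to 7 lower and 0 to 1 higher (7, 2 and 5 lower and 1 higher without mice 407, 310 and 311), beside 0 to 290 lower and 0 to 364 higher over all genes, and the adjusted p of Cxcl17 was 0.111 to 0.193 in the 9 cases in which its call was lost, with log2 fold changes of -1.48 to -1.92. With the block, Cxcl12 was also lower in Ade than in Con (log2 fold change -0.68, edgeR adjusted p = 0.0183). What the digit stands for is not stated. Mice of the same digit in different groups correlated on average by 0.221, 0.130 and 0.092 in their deviations from the group means (digits 2, 3 and 4). Some of those pairs were negative. Mice of different digits correlated on average by -0.072, below each of these means. The digit was left out of the main fits because its meaning is not given, and not because of these correlations. Members that changed sign were not called in either setting, and the cause was not tested. For Ade + IMC against Ade the log2 fold change was positive with edgeR, DESeq2 and the fit over 17 mice for Ccl8 (0.0064, 0.0144 and 0.0257), Cxcl2 (0.2252, 0.2320 and 0.2331), Cxcl9 (0.0901, 0.0996 and 0.1137) and Ccr6 (0.4867, 0.4600 and 0.5047), where limma gave -0.20, -0.24, -0.29 and -0.47. On leaving out single mice it ran from -0.5527 to 0.0408 for Ccl7, from -0.5727 to 0.0787 for Cxcl2 and from -0.1383 to 0.4801 for Cxcr3, and for Cxcr3 with the block it was -0.1553, -0.0134, -0.1130 and -0.1217 without mice 207, 211, 212 and 311. Ccl28 in Ade against Con was -0.0139 with the block and -0.1681 to 0.5671 on leaving out single mice. For Ade + IMC against Con, Ccl28 was called higher under upper-quartile scaling (0.96) and in the fit over 17 mice (0.90). Depth limited Ccl1, Ccl24, Cxcl15, Ccr3, Ccr8, Cxcr2, Ackr1 and Ackr4, which passed no main filter.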
